A study of Mus musculus with 41 samples.

Results

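The genes described here encode the subunits of the proteasome, the protease that breaks down ubiquitin-tagged proteins. Members were taken by symbol, as every row of the deposited count table named Psma, Psmb, Psmc or Psmd and a number, without the immunoproteasome subunits Psmb8, Psmb9 and Psmb10. This gave 36 members of 19434 genes, of which 16 encode the core particle (Psma1 to Psma8, Psmb1 to Psmb7 and Psmb11) and 20 encode the cap (Psmc1 to Psmc6 and Psmd1 to Psmd14). RNA was sequenced from sorted mouse T cells in 41 libraries that the labels call biological replicates, from 2 experiments on Uhrf1, the cofactor that recruits maintenance DNA methylation to newly copied DNA.

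In the chimera experiment, CD25hiFoxp3-YFP+ regulatory T (Treg) cells came from 8-week-old females, 4 with the genotype Uhrf1fl/flFoxp3+/YFP-Cre (chimeric knockout) and 4 with Uhrf1+/+Foxp3YFP-Cre/YFP-Cre (control). Cre is driven there by the X-linked Foxp3 gene, so a heterozygous female keeps Treg cells that use the X without Cre, and those are YFP-negative. In the pulse-chase experiment, Uhrf1fl/flFoxp3GFP-CreERT2Rosa26SorCAG-tdTomato mice (fl/fl below, 6 per population) were set against Uhrf1+/+Foxp3GFP-CreERT2Rosa26SorCAG-tdTomato mice (control, 5 per population), all 8 weeks old. Every mouse ate tamoxifen chow for 2 weeks and then standard chow for 4 weeks, so controls had received tamoxifen too. Tamoxifen switches on Cre in cells that express Foxp3 at that time and leaves them tdTomato-positive. Ex-Foxp3 cells (GFP-negative, tdTomato-positive) had carried the label and no longer had the Foxp3 reporter, labeled Treg cells had both, and post-tamoxifen Treg cells (GFP-positive, tdTomato-negative) had Foxp3 without the label. The post-tamoxifen cells of fl/fl mice are therefore unlabeled Treg cells living in a mouse whose labeled Treg cells underwent Cre activation.

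The proteasome has a barrel-shaped core particle, with outer rings of alpha subunits that gate the entrance and inner rings of beta subunits, of which Psmb5, Psmb6 and Psmb7 carry the proteolytic sites. A cap binds the ends of the barrel: its base holds a ring of Psmc ATPases that unfold substrates together with scaffold and ubiquitin-binding subunits, and its lid removes the ubiquitin chain. Subunit genes are known to be induced together when proteasome activity falls, through Nfe2l1, which binds an antioxidant response element in many of their promoters. In lymphocytes, activation and growth raise the demand for protein turnover, and immunoproteasome subunits take the place of Psmb5, Psmb6 and Psmb7.

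The 120 bases upstream of the start are shown for 3 of the subunit genes that passed the test in a comparison described below (Psma4, Psma6 and Psmc5). They are also shown for the catalytic genes Psmb5 and Psmb6, which passed in none and hold the core element recognised by Nfe2l1. Sequences are RefSeq's, build GRCm38.p6, 5′ to 3′ on the strand of the gene, and capitals mark matches to TGACNNNGC (the core of that element) or CCAAT on either strand.
Psma4, chr9:54950670-54950789, plus strand: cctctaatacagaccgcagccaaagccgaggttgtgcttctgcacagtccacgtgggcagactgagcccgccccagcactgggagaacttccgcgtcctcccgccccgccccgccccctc
Psma6, chr12:55384102-55384221, plus strand: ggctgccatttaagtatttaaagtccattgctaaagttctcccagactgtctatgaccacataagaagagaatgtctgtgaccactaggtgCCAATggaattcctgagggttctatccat
Psmc5, chr11:106256034-106256153, plus strand: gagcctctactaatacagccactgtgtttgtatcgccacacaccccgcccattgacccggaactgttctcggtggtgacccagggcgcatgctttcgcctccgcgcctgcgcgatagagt
Psmb5, chr14:54617996-54618115, minus strand: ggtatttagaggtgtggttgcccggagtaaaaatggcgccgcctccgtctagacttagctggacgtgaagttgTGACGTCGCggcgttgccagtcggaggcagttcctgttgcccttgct
Psmb6, chr11:70525237-70525356, plus strand: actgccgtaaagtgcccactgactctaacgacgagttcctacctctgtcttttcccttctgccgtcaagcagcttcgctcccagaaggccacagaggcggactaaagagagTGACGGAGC
Over whole promoter windows of 300 bases, 29 members had an entry, in 31 windows. TGACNNNGC occurred in 5 of these windows (16.1%), those of Psmb5, Psmb6, Psmc6, Psmd9 and Psmd12, and in 12.4% of all 32851 promoter windows. CCAAT occurred in 12 of the 31 (38.7%) and in 37.4% of all windows. The 2 motifs share no bases in the printed stretches. Neither share in the members stood far from that over all promoters, and a match only says that these letters are present. Most members with a window lacked TGACNNNGC, those that passed in no comparison included, so the printed genes do not compare called with other members.

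Total counts per library lay between 2403189 and 4594977 in chimeric knockout cells, between 3141687 and 5709702 in chimera controls, and between 781437 and 3435802 in the pulse-chase libraries. Uhrf1 averaged 13.1 ± 6.4 CPM (counts scaled to library size) in chimeric knockout Treg cells and 25.2 ± 4.9 CPM in chimera controls (SD, n = 4 each), a log2 fold change of −0.95 ± 0.25 (SE, adjusted p = 0.0378). In labeled cells Uhrf1 was 46.2 ± 34.3 CPM in fl/fl and 50.6 ± 38.2 CPM in control mice (SD, n = 6 and 5), adjusted p = 0.961, and in ex-Foxp3 cells 16.7 ± 7.7 CPM in fl/fl and 19.4 ± 10.2 CPM in control mice. The labels do not say which exons are floxed, and counts over the whole gene need not fall when a few exons are lost, so these values do not check the deletion. Foxp3 lay between 13.3 and 113 CPM in fl/fl and between 79.4 and 151 CPM in control ex-Foxp3 cells, and at 317 CPM or more in every labeled library. Among post-tamoxifen libraries fl/fl 3 and control 2 held the least Foxp3, with 128 and 123 CPM. The T cell genes Cd3e and Cd4 were present in all libraries, at 404 and 645 CPM or more. Y-linked transcripts were counted in chimera control 1, whose label says female, and in all populations of pulse-chase controls 2 and 3. The other libraries had at most 2.3 CPM of them, so in the pulse-chase experiment only control mice stood out.

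Per kilobase of annotated exon, the members spanned a wide range that was much the same in every group. Psmd4, a ubiquitin receptor of the base, and Psma4, an alpha ring subunit, held the top 2 places in all 8 groups: Psmd4 averaged 69.9 and Psma4 81.4 CPM per kb in post-tamoxifen fl/fl cells, against 59.0 and 59.1 CPM per kb in post-tamoxifen controls. The ATPase gene Psmc3 followed at 57.3 CPM per kb in post-tamoxifen fl/fl cells and 47.4 CPM per kb in their controls. At the other end the assembly chaperone genes Psmd5 and Psmd9 had 6.1 and 2.6 CPM per kb in post-tamoxifen fl/fl cells, against 5.2 and 1.8 CPM per kb in control cells. Core and cap genes had similar medians, 30.2 and 24.5 CPM per kb in post-tamoxifen fl/fl cells and 23.8 and 19.99 CPM per kb in post-tamoxifen control cells. Of the catalytic genes, Psmb5 and Psmb6 stood at 32.9 and 30.4 CPM per kb and Psmb7 at 12.2 CPM per kb in post-tamoxifen fl/fl cells, against 30.2, 27.0 and 11.6 CPM per kb in post-tamoxifen controls. The replacement subunit Psmb8 stood above Psmb5 in every group, at 112 CPM per kb in post-tamoxifen fl/fl cells and 99.3 CPM per kb in post-tamoxifen control cells, and Psmb10 stood above Psmb7 in every group. Psmb9 stood below Psmb6 in every group, with a ratio of 0.71 to 0.98, and averaged 26.9 CPM per kb in post-tamoxifen fl/fl and 21.2 CPM per kb in post-tamoxifen control cells. These exon lengths include every annotated isoform, and the order of genes per kb rests on them. They were 3660 bases for Psmb9 and 1872 bases for Psmb6, and 7230 and 7248 bases for Psmd5 and Psmd9. Psmb5, Psmb6 and Psmb7 have annotated pseudogenes among which reads could be split.

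The tissue-restricted members were nearly silent. Psma8, the alpha subunit of the testis proteasome, had 6 counts in all in chimeric knockout cells, 3 in chimera controls, 2 in labeled fl/fl cells and 0 in the other 5 groups, and was not tested. Psmb11, the beta subunit of the thymic cortical epithelium, averaged 0.75 CPM per kb in chimeric knockout and 0.69 CPM per kb in chimera control cells, and at most 0.46 CPM per kb in a pulse-chase group. It passed the expression filter in the chimera experiment only, so 35 members were tested there among 9569 genes, and 34 in the pulse-chase experiment among 9921 genes. Most of the others varied little between libraries of a group: the median biological coefficient of variation (SD between animals as a share of the mean) was 0.118 for members and 0.137 for all genes in the chimera experiment, and 0.150 for members and 0.191 for all genes in the pulse-chase experiment. In the pulse-chase fit it was lowest for Psmd4 and Psmc3, at 0.105 and 0.106, and highest for Psmd9, at 0.308.

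Summed over the 36 genes, proteasome transcripts were most abundant in post-tamoxifen Treg cells of fl/fl mice. The sums of the 6 libraries were 3068, 3121, 3198, 2701, 2979 and 2727 CPM, against 2505, 2467, 2447, 2368 and 2396 CPM in the 5 post-tamoxifen control libraries. All fl/fl sums lay above all control sums, with means of 2966 ± 208 CPM and 2437 ± 55 CPM (SD). The core genes summed to 1100 ± 84 CPM in fl/fl and 892 ± 63 CPM in control cells, and the cap genes to 1865 ± 133 CPM in fl/fl and 1545 ± 48.5 CPM in control cells. The ratio of core to cap was 0.59 ± 0.02 in fl/fl and 0.58 ± 0.05 in control cells, so both parts stood higher by a like proportion. Labeled cells averaged 2708 ± 274 CPM in fl/fl and 2626 ± 226 CPM in control mice, and ex-Foxp3 cells 2495 ± 182 CPM in fl/fl and 2409 ± 90 CPM in control mice, with ranges that overlapped. The chimera sums overlapped too, with 2513 ± 118 CPM in knockout and 2436 ± 96 CPM in control cells (SD, n = 4 each).

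**Figure D1:**
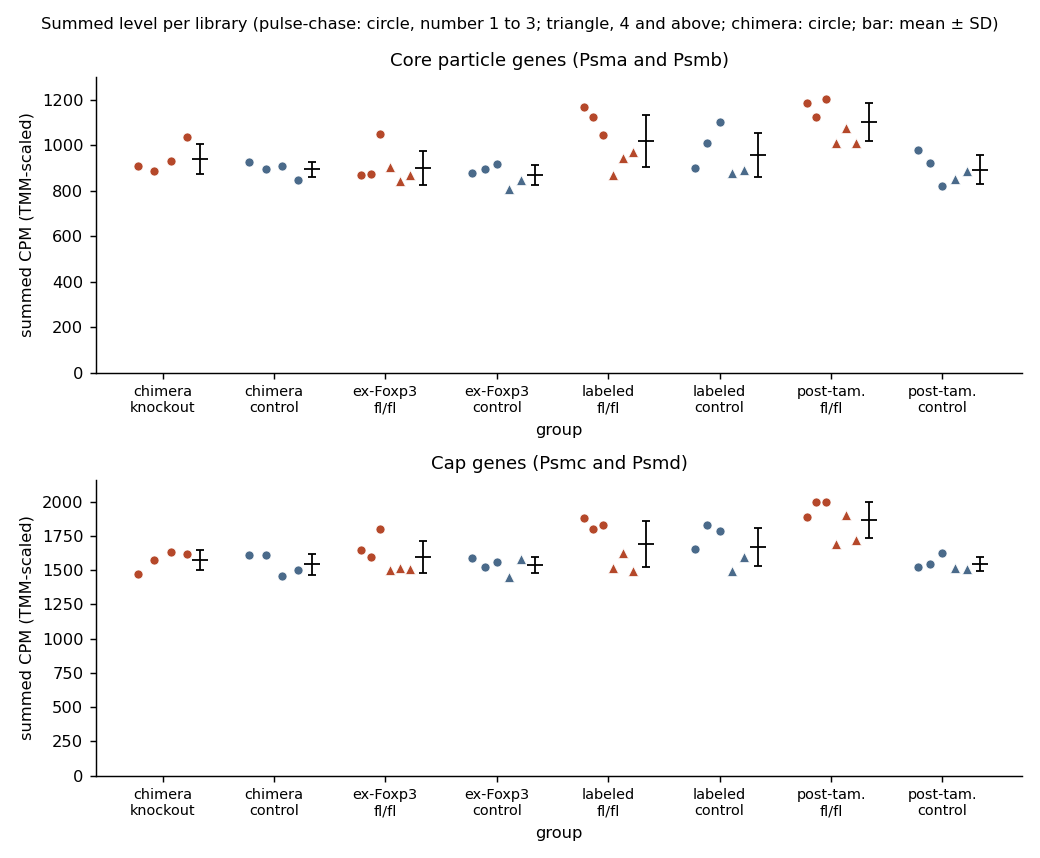
Summed CPM of the 16 core genes (top) and the 20 cap genes (bottom) in each library of the 8 groups, with the group mean ± SD beside the points. Red groups carry floxed Uhrf1 and blue groups are controls; the post-tamoxifen fl/fl libraries, with core sums of 1009 to 1202 CPM, lie above their 5 controls, with 819 to 980 CPM.

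Between post-tamoxifen Treg cells of fl/fl and control mice, 4 of the 34 tested members rose in fl/fl cells and none fell, where 7.23% of all genes tested passed and 3.9% passed as higher. DESeq2 called 6. The 4 were the base scaffold Psmd1, the alpha ring subunit Psma4 and the structural beta subunits Psmb2 and Psmb1. All 34 log2 fold changes were above 0, as were 51% of those of all genes, with a median of 0.27 for the members and 0.008 for all genes. At an unadjusted p under 0.05, 16 members were higher, where 13.1% of all genes were. The groups did not overlap for 3 members, Psma4, Psmb1 and Psmb2, or 8.82% of those tested, while 1.41% of all genes had every fl/fl library above every control. The cells are bulk samples, in which fewer cells of a type and less RNA per cell cannot be told apart.

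Psma4, in the alpha ring, ran from 178 through a median of 187 to 212 CPM in the 6 fl/fl libraries, against 156, 154, 134, 121 and 134 CPM in the controls. The lowest fl/fl library lay above the highest control. Its log2 fold change was 0.47 ± 0.11 (SE, adjusted p = 0.0068, edgeR quasi-likelihood test). The other alpha ring genes did not pass: Psma6 had 0.35 ± 0.15, Psma5 0.33 ± 0.22, Psma3, whose product helps close the gate, 0.32 ± 0.12, and Psma7 0.07 ± 0.14 as log2 fold changes. A short antisense transcript, AY074887, overlaps Psma4 by 165 bases, and without the strand setting of the counting their reads cannot be told apart.

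Among the structural beta subunits, which build the inner rings without cutting proteins, Psmb2 ran from 37.8 through 41.9 to 57.3 CPM in fl/fl libraries and had 34.2, 33.5, 27.4, 31.4 and 19.7 CPM in controls. Psmb1 ran from 127 through 137 to 152 CPM in fl/fl libraries, against 108, 109, 98.0, 103 and 103 CPM in controls. For both genes the groups were separate, and for Psmb2 the closest libraries were fl/fl 2, 4 and 6 and control 1. Log2 fold changes were 0.59 ± 0.18 for Psmb2 (adjusted p = 0.0363) and 0.41 ± 0.13 for Psmb1 (adjusted p = 0.0489). Psmb4 stood at 0.42 ± 0.15 and Psmb3 at 0.24 ± 0.18 on the log2 scale, and neither passed.

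The catalytic subunits, none of which passed in edgeR or DESeq2 or had an unadjusted p under 0.05, had the smallest median fold change of any role. Psmb5, the chymotrypsin-like site, ran from 23.1 through 29.6 to 35.6 CPM in fl/fl libraries, against 10.1, 35.1, 26.6, 27.5 and 36.6 CPM in controls, a log2 fold change of 0.07 ± 0.23 (adjusted p = 0.891). The fl/fl values lay inside the control range, which control 1 widened. Psmb6, the caspase-like site, had a log2 fold change of 0.20 ± 0.15 and Psmb7, the trypsin-like site, 0.08 ± 0.15. The median over these 3 genes was 0.08, against 0.32 over the 7 alpha ring genes and 0.41 over the 4 structural beta genes, and the difference between roles was not tested.

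In the cap, Psmd1, the largest scaffold of the base, ran from 129 through 149 to 176 CPM in fl/fl libraries, against 78.6, 97.3, 141, 108 and 100 CPM in controls. Only control 3, at 141 CPM, reached into the fl/fl range. The log2 fold change was 0.51 ± 0.11 (adjusted p = 0.0045), the smallest adjusted p among the members. Psmd1 shares 5515 bases with RP24-308M3.1, a gene annotated on the same strand, so some of its reads could belong to either. On the opposite strand it shares 12945 bases with Htr2b, and Psmc3 shares 4579 bases with Slc39a13. The strand setting of the counting is not given in the sources used here, so these pairs cannot be told apart either. The other scaffold and receptor genes did not pass, with 0.24 ± 0.09 for Psmd4 and 0.13 ± 0.10 for Psmd2 on the log2 scale. The ATPase genes lay between 0.20 and 0.38, among them Psmc2 at 0.20 ± 0.11, Psmc4 at 0.38 ± 0.17 and Psmc3 at 0.27 ± 0.10. None passed in edgeR, 3 had an unadjusted p under 0.05, and Psmc3 passed in DESeq2.

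None of the 8 lid genes passed in edgeR or DESeq2, although 4 were higher at an unadjusted p under 0.05 and their median log2 fold change was 0.31. Psmd14, the deubiquitinase of the lid, ran from 54.0 through 76.5 to 105 CPM in fl/fl libraries, against 72.3, 69.3, 52.4, 46.3 and 54.9 CPM in controls, with 0.40 ± 0.19 on the log2 scale. Its 3 highest values were those of fl/fl libraries 1, 2 and 3, and the groups overlapped. Psmd11, a scaffold of the lid, differed least of all members: 84.7 through 95.8 to 106 CPM in fl/fl libraries, against 95.1, 83.6, 87.7, 102 and 111 CPM in controls, with 0.003 ± 0.11 on the log2 scale. Psmd12 had 0.28 ± 0.16.

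Of the assembly chaperones, which join the parts of the base and are not in the finished particle, none passed in edgeR and Psmd10 passed in DESeq2. Psmd10, also known as gankyrin, ran from 18.5 through 19.9 to 23.2 CPM in fl/fl libraries, against 12.7, 20.5, 9.9, 10.5 and 10.5 CPM in controls. Control 2, among the libraries with little Foxp3 and among those with Y-linked transcripts, was the only control inside the fl/fl range. Control 3, also with Y-linked transcripts, had 9.9 CPM. The log2 fold change of 0.66 ± 0.22 was the largest of the 34 and missed the threshold (adjusted p = 0.0572). Without control 2 and fl/fl 3, the pair lowest in Foxp3, Psmd10 passed with 0.96 ± 0.25 (adjusted p = 0.0124). That removal was chosen after seeing the data and took out the only overlapping control, and Psmb1 and Psmb2 lost their calls under it. Psmd9 had 0.56 ± 0.31 and Psmd5 0.21 ± 0.17.

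**Figure D2:**
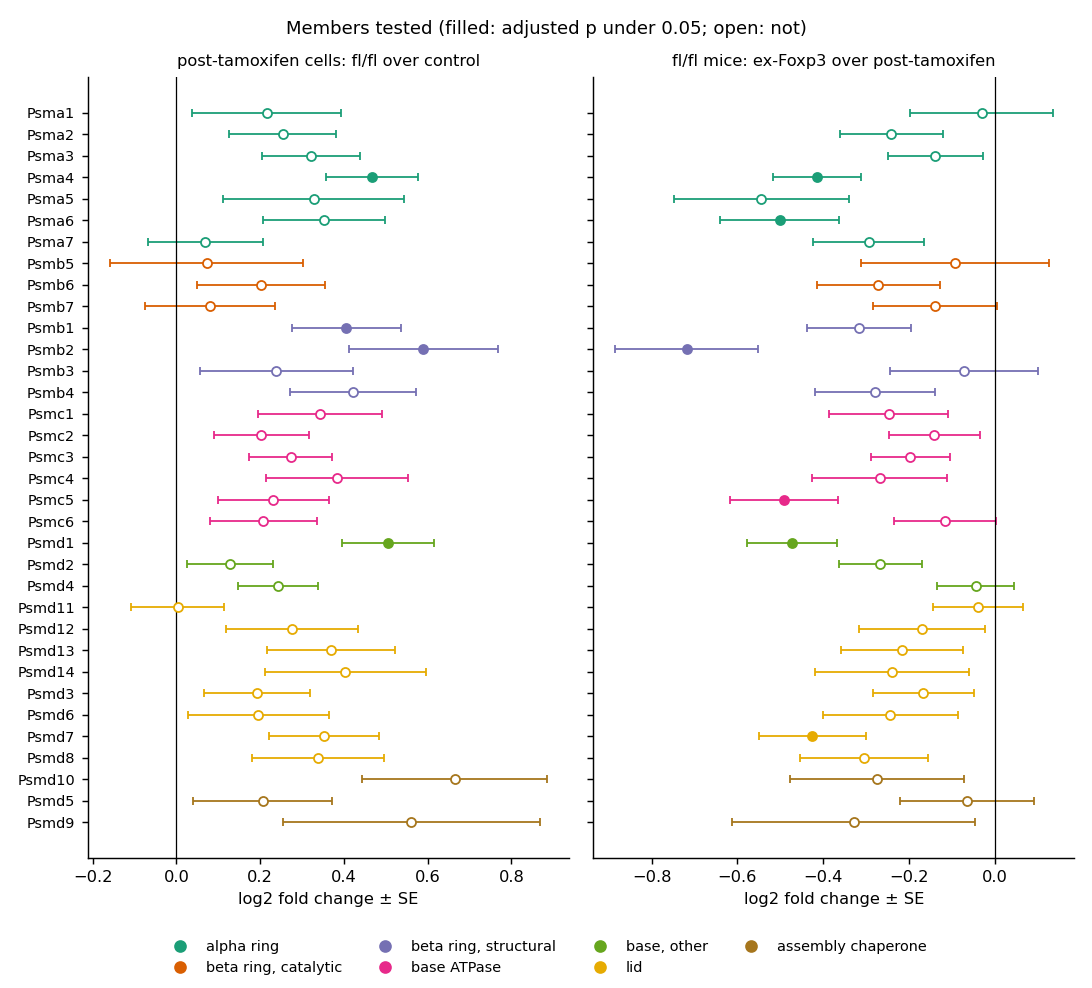
Log2 fold change ± SE of each tested member, grouped by role, for post-tamoxifen cells of fl/fl over control mice (left) and for ex-Foxp3 over post-tamoxifen cells of fl/fl mice (right). Filled points passed the test: 4 genes above 0 on the left and 6 below 0 on the right, with every other point on the same side of 0.

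Other transcripts moved with this difference, and their part in it was not tested. Summed G2/M transcripts were 4703, 3470 and 5646 CPM in fl/fl libraries 1 to 3 and 366, 564 and 612 CPM in fl/fl libraries 4 to 6, against 1642, 451, 664, 240 and 218 CPM in controls. All 20 G2/M genes had log2 fold changes above 0, with a median of 2.44: none passed in edgeR, 19 were higher at an unadjusted p under 0.05, and 8 passed in DESeq2. Of 20 S-phase genes, a list that holds Uhrf1 itself, 3 rose in edgeR and 7 in DESeq2. At an unadjusted p under 0.05, 14 were higher, and the median was 0.88. Libraries 4 to 6 of the fl/fl mice lay inside the control range of G2/M sums, though above controls 4 and 5, at 240 and 218 CPM. The proteasome sums of these fl/fl libraries, 2701 to 2979 CPM, lay above all 5 control sums. Labeled fl/fl libraries 1 to 3 had G2/M sums of 2502 to 4060 CPM and proteasome sums of 2871 to 3046 CPM, against 348 to 439 CPM and 2382 to 2568 CPM in labeled fl/fl libraries 4 to 6. Labeled controls 1 to 3 had G2/M sums of 1178 to 2032 CPM and proteasome sums of 2552 to 2884 CPM. In labeled controls 4 and 5 these were 329 to 332 CPM and 2369 to 2485 CPM.

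By replicate number, the median log2 fold change of the members was 0.37 within numbers 1 to 3, where 6 passed, and 0.24 within numbers 4 and above, where only Psma4 passed, at 0.59 ± 0.14 (adjusted p = 0.0133). Over all genes, 737 of 9910 passed as higher within numbers 1 to 3 and 149 of 9934 within numbers 4 and above, so the background differed between these subsets too. Psma4 did not pass within numbers 1 to 3 (adjusted p = 0.0733), and Psmd1 did not pass within numbers 4 and above (adjusted p = 0.0841). Within the higher numbers, 2 controls remain. Leaving out single libraries gave between 2 and 8 called members: 8 without control 2, 7 without fl/fl 6, and 2 without each of controls 3, 4 and 5 and fl/fl 1 and 3. Psma4 and Psmd1 passed in each of these fits, whereas Psmb1 and Psmb2 reached adjusted p-values of up to 0.113 and 0.119. Counted by library, 32, 31, 33, 20, 30 and 29 of the 34 members lay above the control mean in fl/fl libraries 1 to 6, while between 46.4% and 49.8% of all genes tested did.

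Markers of other cells differed as well. The 5 B and plasma cell markers summed to 541, 161 and 171 CPM in fl/fl libraries 1 to 3 and to 8.5 to 11.5 CPM in fl/fl libraries 4 to 6, against 2.6 to 60.9 CPM in controls. The 6 myeloid markers summed to 49.0 to 487 CPM in fl/fl and 14.0 to 349 CPM in control cells, ranges that overlap, and the 5 natural killer cell markers to 14.3 to 90.8 CPM in fl/fl and 7.6 to 15.9 CPM in control cells. In edgeR 1 of 3 tested B and plasma cell markers rose, and none did in DESeq2. None of 6 myeloid markers rose with either tool or at an unadjusted p under 0.05. With both tools 1 of 2 tested natural killer markers and 1 of 5 Treg markers rose, while 1 of 2 tested stromal markers fell. Their part in the proteasome values was not tested. Uhrf1 itself was listed at 84.9 ± 65.1 CPM in fl/fl and 29.9 ± 18.7 CPM in control post-tamoxifen cells (SD, n = 6 and 5), with the 3 highest values in fl/fl libraries 1 to 3, and did not pass (log2 fold change 1.62 ± 0.64, adjusted p = 0.113).

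**Figure D3:**
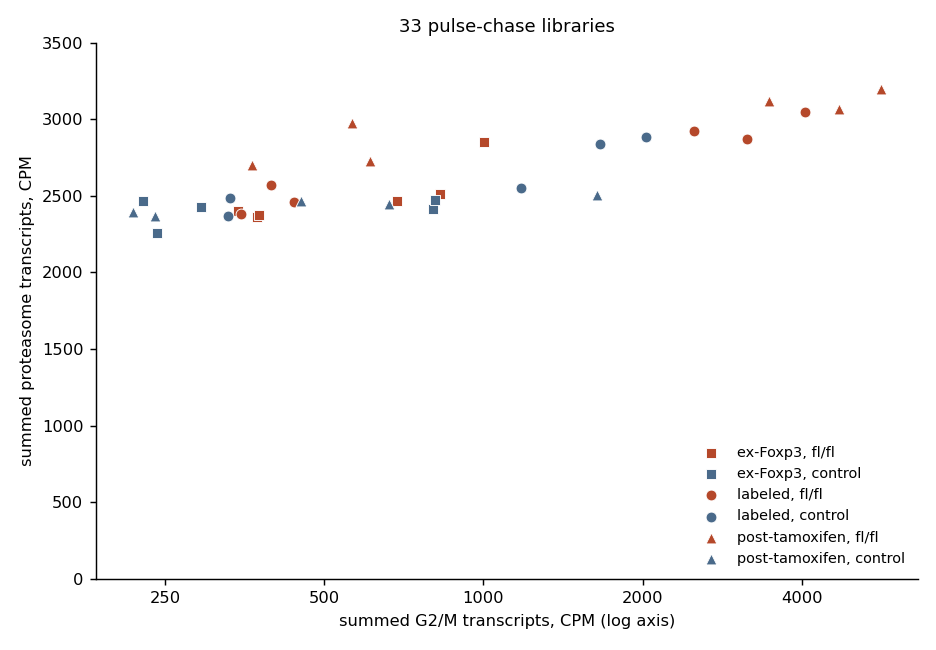
Summed proteasome CPM against summed G2/M CPM (log axis) in the 33 pulse-chase libraries, in red for fl/fl and blue for control mice. Post-tamoxifen fl/fl libraries 4 to 6 have G2/M sums of 366 to 612 CPM and proteasome sums of 2701 to 2979 CPM. Their G2/M sums lie inside the control range but above post-tamoxifen controls 4 and 5, at 240 and 218 CPM.

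Within fl/fl mice, 6 of 34 members fell in ex-Foxp3 cells relative to post-tamoxifen Treg cells and none rose, where 15.2% of all genes tested passed and 9.39% passed as lower. All 34 log2 fold changes were below 0, where 51.7% of all genes were above 0, with a median of −0.25 over the members and 0.01 over all genes. At an unadjusted p under 0.05, 12 members were lower, where 15.8% of all genes were, and DESeq2 called 8. With the replicate number as a block, 8 passed, the 6 and also Psmb1 at −0.33 (adjusted p = 0.0282) and Psmd2 at −0.26 (adjusted p = 0.0137). This comparison shares the post-tamoxifen fl/fl libraries with the one above, so the values stand side by side and do not support each other. Psma4 and Psmb2 did not overlap between the groups, 5.88% of the members tested, where 3.2% of all genes had every ex-Foxp3 library below every post-tamoxifen library. S-phase and G2/M genes also fell here, 14 of 20 in each list, as did 6 of 6 myeloid markers, which summed to 5.7 to 17.3 CPM in ex-Foxp3 and 49.0 to 487 CPM in post-tamoxifen libraries. Of the tested B and plasma cell markers 2 of 3 fell, with sums of 2.6 to 9.2 CPM in ex-Foxp3 and 8.5 to 541 CPM in post-tamoxifen libraries. The Treg list holds Foxp3, on whose reporter the cells were sorted, and 3 of 5 Treg markers and 1 of 2 CD8 T cell markers fell. Their part in the proteasome values was not tested.

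Psmb2 ran from 17.3 through 26.1 to 35.7 CPM in ex-Foxp3 cells of fl/fl mice, against 37.8 through 41.9 to 57.3 CPM in their post-tamoxifen cells. The ex-Foxp3 values were all lower, and the log2 fold change was −0.72 ± 0.17 (adjusted p = 0.0029). Psma4 ran from 125 through 145 to 163 CPM in ex-Foxp3 and from 178 through 187 to 212 CPM in post-tamoxifen cells, with −0.41 ± 0.10 (adjusted p = 0.0050). The alpha ring subunit Psma6 ran from 33.7 through 46.3 to 63.4 CPM in ex-Foxp3 cells, against 52.6 through 68.7 to 79.3 CPM in post-tamoxifen cells. Ex-Foxp3 libraries 3 and 4 reached into the post-tamoxifen range of Psma6, and its log2 fold change was −0.50 ± 0.14 (adjusted p = 0.0111).

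In the cap, the base ATPase Psmc5 ran from 43.0 through 49.9 to 70.0 CPM in ex-Foxp3 and from 64.0 through 76.8 to 87.6 CPM in post-tamoxifen cells, with −0.49 ± 0.13 (adjusted p = 0.0061). Only ex-Foxp3 library 3 entered the post-tamoxifen range. Psmd1 ran from 94.4 through 106 to 134 CPM in ex-Foxp3 and from 129 through 149 to 176 CPM in post-tamoxifen cells, with −0.47 ± 0.10 (adjusted p = 0.0017). Ex-Foxp3 library 1 was the only library of Psmd1 inside the other group's range. The lid subunit Psmd7, partner of the deubiquitinase Psmd14, ran from 68.5 through 72.4 to 94.0 CPM in ex-Foxp3 and from 88.0 through 105 to 119 CPM in post-tamoxifen cells, with −0.43 ± 0.12 (adjusted p = 0.0165). Its ranges overlapped through ex-Foxp3 library 5, at 94.0 CPM, and the other ex-Foxp3 libraries lay below every post-tamoxifen library.

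**Figure D4:**
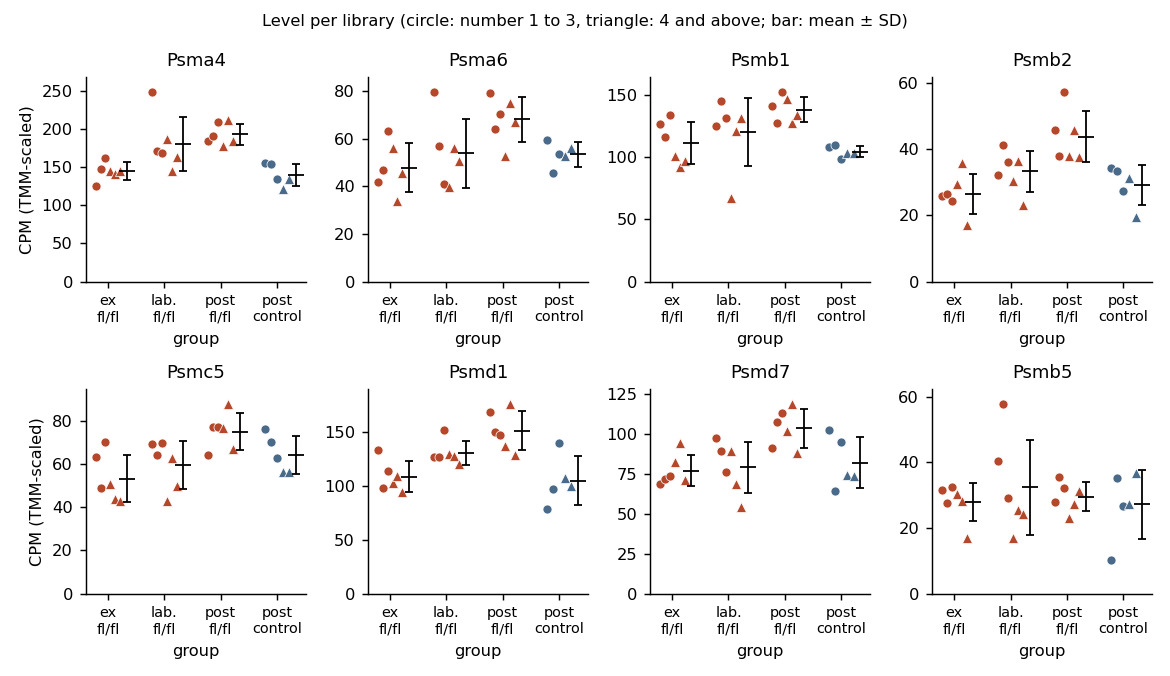
Level in CPM per library of the 7 members that passed a test and of the catalytic Psmb5, in ex-Foxp3, labeled and post-tamoxifen cells of fl/fl mice (red) and in post-tamoxifen cells of control mice (blue), with mean ± SD. In Psma4 and Psmb2 the post-tamoxifen fl/fl points, from 178 and from 37.8 CPM, lie above all ex-Foxp3 fl/fl and all post-tamoxifen control points.

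The catalytic genes were again not among those that passed, with −0.09 ± 0.22 for Psmb5, −0.27 ± 0.14 for Psmb6 and −0.14 ± 0.15 for Psmb7. Psma5 had the second largest fold change, −0.54 ± 0.20, and did not pass (adjusted p = 0.0634), while Psma1 and Psmd11, at −0.03 ± 0.17 and −0.04 ± 0.11, stood nearest to 0. Leaving out any library kept all 6 calls. Within numbers 1 to 3 only Psmb2 and Psmd7 of the 6 passed, with 3 members called in all. Within numbers 4 and above, Psma4, Psmc5 and Psmd1 of the 6 passed, with 5 called in all. Over all genes 747 of 9910 passed as lower within numbers 1 to 3 and 708 of 9934 within numbers 4 and above, beside 3 and 5 of the 34 members. In control mice, the same contrast of ex-Foxp3 with post-tamoxifen cells called none of the 34 members in edgeR or DESeq2, where 5.33% of all genes passed, and none had an unadjusted p under 0.05, where 15.5% of all genes had. The median was −0.02. Psmb5 and Psma2 were furthest below 0, at −0.43 ± 0.25 (adjusted p = 0.422) and −0.21 ± 0.13, and Psmd10 and Psmc4 furthest above it, at 0.21 ± 0.23 and 0.20 ± 0.18. Of the myeloid markers 4 of 6 fell in this contrast. Whether it differed between genotypes was not tested.

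In the chimera, none of the 35 tested members passed between knockout and control Treg cells, in edgeR or DESeq2, where 2.41% of all genes passed, and none had an unadjusted p under 0.05, where 13.4% of all genes had. The median log2 fold change was 0.07 over the members, 0.12 over the core genes and 0.01 over the cap genes. Psmb5 had 27.6, 21.8, 28.2 and 27.7 CPM in knockout cells, against 27.3, 18.7, 21.5 and 19.99 CPM in controls. The groups overlapped through knockout 2 and control 1, and the log2 fold change was 0.26 ± 0.19 (adjusted p = 0.605). Psmb6 and Psmb7, with 0.22 ± 0.14 and 0.21 ± 0.15, completed the catalytic set above 0 without passing. The extremes were the assembly chaperones Psmd5 at 0.32 ± 0.17 (adjusted p = 0.434) and Psmd10 at −0.24 ± 0.24, followed on the lower side by Psma5 at −0.12 ± 0.19. Leaving out any library, chimera control 1 with its Y-linked transcripts included, still called no member. Chimera controls 3 and 4 had B and plasma cell marker sums of 67.4 and 64.6 CPM, against 5.4 to 14.3 CPM in the other chimera libraries. Their G2/M sums were 632 and 544 CPM, against 167 to 317 CPM. Without both controls no member passed either, where 95 of 9877 genes did, and the part of these transcripts was not tested.

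Labeled Treg cells of fl/fl and control mice also gave no called member in edgeR or DESeq2, where 0.0101% of all genes tested passed, and 1 member was higher at an unadjusted p under 0.05, where 4.08% of all genes were. That gene was Psma4, which ran from 146 through 170 to 248 CPM in fl/fl libraries and had 133, 161, 174, 114 and 127 CPM in controls. The groups overlapped, with fl/fl library 1 far above the others, and the log2 fold change was 0.34 ± 0.11 (adjusted p = 0.247). The median over the members was 0.01, with Psmb7 at 0.29 ± 0.15 next above, and Psmd9 and Psmd12 lowest at −0.27 ± 0.31 and −0.11 ± 0.16. In ex-Foxp3 cells no member passed between fl/fl and control mice with either tool, where 0.181% of all genes passed, and none had an unadjusted p under 0.05, where 8.84% of all genes had. The median was 0.03. Psmb5 and Psmb3 stood highest, at 0.41 ± 0.23 (adjusted p = 0.655) and 0.26 ± 0.18, and Psmb2 and Psma6 lowest, at −0.22 ± 0.18 and −0.12 ± 0.15.

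The genotype difference of labeled cells minus that of post-tamoxifen cells was tested directly. No member passed with edgeR or DESeq2, where 0.0202% of all genes passed, while 8 members were lower at an unadjusted p under 0.05, where 4.47% of all genes were. Of the 34 members 30 had values below 0, where 47.6% of all genes had values above 0, with a median of −0.24, and the smallest adjusted p was that of Psmd1, 0.524 at −0.46 ± 0.16 on the log2 scale. So the larger fold changes in post-tamoxifen cells were not shown to differ from those in labeled cells. Psmd9 and Psmb2 had the lowest values, −0.83 ± 0.43 and −0.58 ± 0.25, and Psmb7 and Psmb5 the highest, 0.21 ± 0.22 and 0.13 ± 0.33. The same difference between ex-Foxp3 and labeled cells had a median of 0.02 over the members. No member passed in edgeR, where 0% of all genes passed, or in DESeq2, and none had an unadjusted p under 0.05, where 2.38% of all genes had. Its extremes were Psmd9 at 0.42 ± 0.43 and Psmc4 at −0.35 ± 0.24.

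Comparing populations within a genotype, labeled against post-tamoxifen cells of fl/fl mice gave no called member in edgeR, where 4.58% of all genes passed, and 7 members were lower at an unadjusted p under 0.05, where 8.91% of all genes were. Of the 34, 31 had log2 fold changes below 0, where 47% of all genes were above 0, with a median of −0.10. Psmd9 had the lowest value, −0.54 ± 0.29, and Psmb5 the highest, 0.14 ± 0.22. Of the markers of other cells, 5 of 6 myeloid and 2 of 3 tested B and plasma cell markers fell, with myeloid sums of 5.8 to 24.8 CPM in labeled and 49.0 to 487 CPM in post-tamoxifen libraries, and their part was not tested. Psmd7 came nearest to the threshold, at −0.40 ± 0.13 (adjusted p = 0.0588), and passed with the replicate number as a block, at −0.40 ± 0.12 (adjusted p = 0.0318), and in DESeq2. In control mice the same contrast ran the other way, with 28 of 34 values above 0, where 50.4% of all genes were, and a median of 0.12. No member passed there with either tool, where 7.93% of all genes passed. At an unadjusted p under 0.05, 3 members were higher, where 9.9% of all genes were, among them Psmb1 at 0.30 ± 0.14 and Psmd1 at 0.26 ± 0.12 (adjusted p = 0.189). Without post-tamoxifen control 3, Psmd1 passed, at 0.38 ± 0.11 (adjusted p = 0.0388). In the control contrast 4 of 6 myeloid markers and 1 of 2 tested stromal markers fell, and all 20 G2/M genes were above 0 with a median of 1.02. None of the G2/M genes passed in edgeR or DESeq2 or had an unadjusted p under 0.05, and the part of these transcripts was not tested.

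Ex-Foxp3 against labeled cells gave no called member in either genotype in edgeR, where 4.09% of all genes passed in fl/fl and 0.353% in control mice. In each genotype 3 members were lower at an unadjusted p under 0.05, where 9.35% of all genes were in fl/fl and 5.03% in control mice. The median was −0.13 in fl/fl mice, where the core genes had −0.19 and the cap genes −0.05. In control mice the median was −0.12, with −0.11 for the core and −0.12 for the cap genes. The difference between core and cap was not tested. In fl/fl mice 2 of 20 S-phase genes fell too, with a median of −0.95. At an unadjusted p under 0.05, 16 of them were lower, and DESeq2 called 4. Of 5 Treg markers 3 fell, in a list that holds Foxp3, on whose reporter the cells were sorted. The G2/M median was −1.98 in fl/fl mice, where none of the 20 passed in edgeR, 17 were lower at an unadjusted p under 0.05 and DESeq2 called 2. In control mice it was −1.31, where none passed with either tool and 3 had an unadjusted p under 0.05, and 2 of 5 Treg markers fell. Their part in the proteasome values was not tested. In fl/fl mice Psma4 stood at −0.31 ± 0.10 (adjusted p = 0.0748) and passed with the replicate number as a block, at −0.31 ± 0.10 (adjusted p = 0.0415), and in DESeq2. Psmb2 and Psma5 were lower still, at −0.33 ± 0.17 and −0.32 ± 0.21, and did not pass. In control mice the furthest members were Psmb5 at −0.44 ± 0.25 and Psma2, an alpha ring subunit, at −0.34 ± 0.13 (adjusted p = 0.356), and DESeq2 called none.

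**Figure D5:**
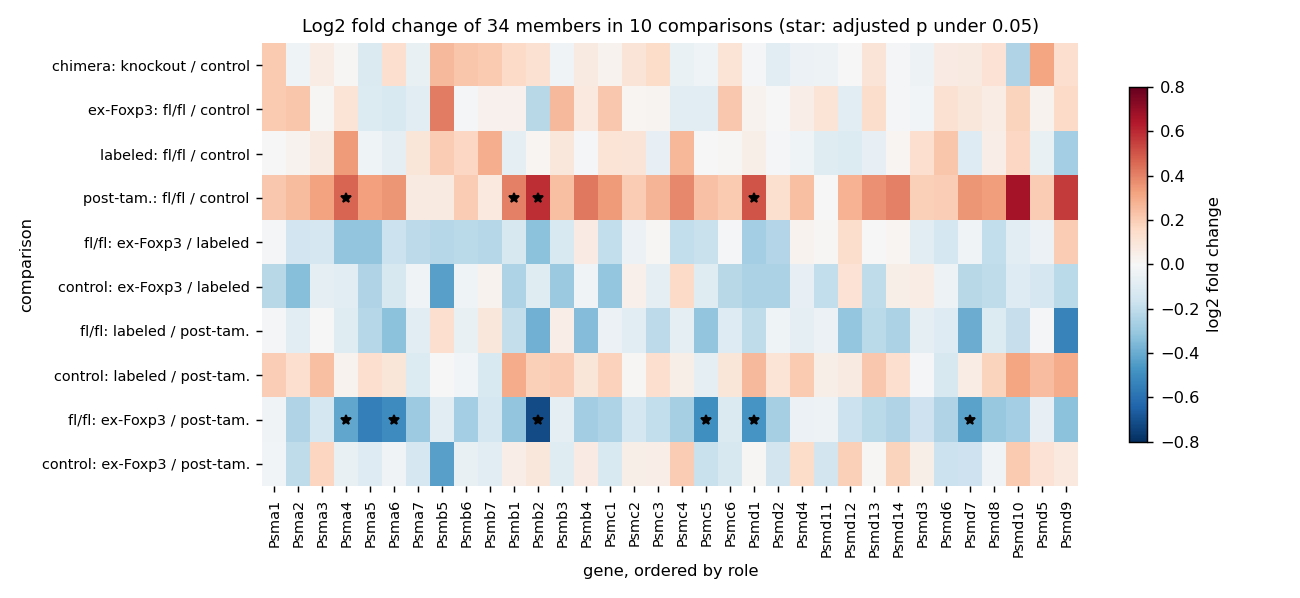
Log2 fold change of the 34 members tested in both experiments (columns, ordered by role) in 10 comparisons (rows), red above 0 and blue below 0, with a star where the adjusted p was under 0.05. The 4 starred genes in the post-tamoxifen fl/fl over control row and the 6 in the ex-Foxp3 over post-tamoxifen fl/fl row are the only calls.

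Genes that work with the proteasome were read from lists by role. In post-tamoxifen cells of fl/fl over control mice, none of the 3 immunoproteasome genes, none of the 5 activators and inhibitors and none of the 6 ubiquitin genes passed, in edgeR or DESeq2. At an unadjusted p under 0.05, 2, 2 and 1 of them were higher, where 13.1% of all genes were. Over all genes tested 7.23% passed in edgeR, 3.9% as higher, beside the single calls that follow. Of 5 assembly factors 1 rose, Pomp, which matures the beta rings, at 84.7 ± 4.9 CPM in fl/fl and 53.5 ± 7.8 CPM in control cells (SD, n = 6 and 5). Its ranges were 79.2 to 92.0 CPM in fl/fl and 44.9 to 64.1 CPM in control cells, which do not overlap, and the log2 fold change was 0.67 ± 0.16 (adjusted p = 0.0077). Of 9 cap-associated genes 1 rose, Rad23b, a shuttle for ubiquitin-tagged proteins, at 0.34 ± 0.10 (adjusted p = 0.0291). Of 10 regulators 1 fell, Nfe2l2, a transcription factor of the same family as Nfe2l1, at 41.8 ± 3.9 CPM in fl/fl and 59.2 ± 5.9 CPM in control cells, with −0.50 ± 0.13 (adjusted p = 0.0115), while Nfe2l1 stood at −0.03 ± 0.09. Psmb8, Psmb9 and Psmb10 had 0.18 ± 0.08, 0.31 ± 0.13 and 0.16 ± 0.14 on the log2 scale. The other abundant companions stood at 0.41 ± 0.16 for Psme1, 0.33 ± 0.13 for Ubb, 0.18 ± 0.19 for Rps27a, 0.13 ± 0.29 for Psmg4, 0.08 ± 0.10 for Vcp, 0.07 ± 0.10 for Psme4, 0.07 ± 0.10 for Ubqln1, 0.06 ± 0.10 for Ddi2 and −0.07 ± 0.10 for AI314180, and none passed.

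In ex-Foxp3 over post-tamoxifen cells of fl/fl mice, which share the post-tamoxifen libraries, 15.2% of all genes tested passed in edgeR. There the same lists gave Pomp at −0.59 ± 0.15 (adjusted p = 0.0054), Rad23b at −0.34 ± 0.09 (adjusted p = 0.0101) and Nfe2l2 at 0.53 ± 0.12 (adjusted p = 0.0021). The activator subunit Psme1 fell by 0.48 on the log2 scale (adjusted p = 0.0273) and Shfm1, a small lid subunit, by 0.37 (adjusted p = 0.0264). Between knockout and control Treg cells of the chimera, no gene in these 6 lists passed in edgeR or DESeq2, where 2.41% of all genes passed in edgeR. Of these lists 1 ubiquitin gene had an unadjusted p under 0.05, where 13.4% of all genes had.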

How the data were processed

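RNA from sorted cells was made into libraries with a stranded total RNA kit, per the labels' protocols. The submitters' processing notes name bcl2fastq 2.17.1.14, TopHat2 2.1.0 and the mouse builds mm10 and GRCm38; the strand setting of the counting is not given in the sources used here. The authors deposited raw counts per gene in a table for all 41 libraries, and samples were grouped by the genotype and cell population in the labels. The chimera and pulse-chase libraries were scaled and fitted separately, so nothing was tested across them.

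Genes were filtered by expression within groups, scaled by TMM and tested with edgeR 4.0.16 (quasi-likelihood, robust, R 4.3.3), two-sided, with p-values adjusted by Benjamini and Hochberg's method across every tested gene, and a threshold of 0.05. Called, passed, rose and fell mean an adjusted p under it. CPM are TMM-scaled, and levels between genes are per kilobase of the GENCODE exon union. SE is the log2 fold change divided by the square root of F. On simulated counts with known changes, the post-tamoxifen comparison recovered 81 of 97 genes changed 2-fold and 96 of 96 changed 4-fold among 9661 genes, with 7 false calls. Smaller changes, such as those of the members, were not simulated.

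The members and all gene lists were chosen with earlier results of these data known. Genes named are members fixed by role, every called member, the most extreme fold changes of each comparison, filtered-out members, and the called and most abundant genes of the companion lists. Members RefSeq lists no promoter for are not shown. By symbol, 32 members have the GENCODE identifier and 4 another one; all 36 overlap the GENCODE gene of that name. Libraries of one group differed by more than sampling noise, the smallest chi-square per degree of freedom being 2.60.

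Same-numbered libraries of fl/fl mice deviated together between populations (correlations of 0.14 to 0.36 for ex-Foxp3 and labeled, 0.25 to 0.44 for labeled and post-tamoxifen, 0.13 to 0.39 for ex-Foxp3 and post-tamoxifen), as did those of control ex-Foxp3 and labeled cells (0.14 to 0.30), so the number was read there as pairing. Between genotypes, which are different mice, same-numbered labeled libraries had correlations of 0.08 to 0.30 and ex-Foxp3 libraries 0.03 to 0.16. The correlations alone therefore do not show that the number stands for an animal. Results printed first are from the fit without the number, as designed, and the fit with the number as a block stands beside them where it changed a call. Alternatives were DESeq2 1.42.0, RLE scaling, no expression filter, the compared groups only, a replicate block, number subsets, leaving out each library and leaving out chimera controls 3 and 4. Leaving out the post-tamoxifen pair with little Foxp3, and leaving out control numbers 2 and 3, which held Y-linked transcripts, were chosen after seeing the data.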

Additional observations from a re-analysis of the deposited data

Results flagged for a closer look

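Over 104 sets of group values (the summed members, core and cap and 10 members in each of 8 groups), 8 values, in 6 libraries, stood apart from the rest of their group by Dixon's criterion, which flags about 1 in 20 groups by chance. In ex-Foxp3 cells of fl/fl mice, library 3 had the highest sum of all members, 2848 CPM where the other libraries had 2362 to 2512 CPM, and of the core genes, 1049 CPM where the others had 844 to 905 CPM. Library 6 of that group had the lowest Psmb5, 16.9 CPM against 27.6 to 32.4 CPM in the others, and the highest Psmb6, 63.3 CPM against 41.0 to 46.0 CPM. In ex-Foxp3 cells of control mice, library 4 had the lowest sum of all members, 2255 CPM against 2417 to 2476 CPM. In labeled fl/fl cells, library 4 was lowest in Psmb1, with 67.2 CPM against 121 to 145 CPM, and library 3 highest in Psmd1, with 153 CPM against 121 to 130 CPM. In chimeric knockout cells, library 2 was lowest in Psmb5, with 21.8 CPM against 27.6 to 28.2 CPM.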

How the results depend on the processing

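The count of called members stayed at 0 under every alternative for the chimera, for labeled and ex-Foxp3 genotype comparisons, for both differences of differences, and for control ex-Foxp3 against labeled or post-tamoxifen cells. In post-tamoxifen cells of fl/fl over control mice, the 4 calls became 2 with the compared groups only (Psma4 and Psmb1) and with no expression filter, 1 within numbers 4 and above, and 10 with a replicate block, where the numbers do not pair these mice (correlations of −0.08 to 0.25); leaving out 1 library gave 2 to 8. For ex-Foxp3 over post-tamoxifen cells of fl/fl mice, the 6 calls became 3 within numbers 1 to 3, were 8 with the replicate block, and were 6 to 8 with 1 library left out. Ex-Foxp3 over labeled fl/fl cells went to 1 call with DESeq2, 1 with the replicate block and 0 to 1 with 1 library left out. Labeled over post-tamoxifen fl/fl cells went to 1 with DESeq2, 1 within numbers 4 and above, 1 with the replicate block and 0 to 2 with 1 library left out; labeled over post-tamoxifen control cells had 0 to 1. The block changed no other count of calls. The cause of these changes was not tested.

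In post-tamoxifen cells of fl/fl over control mice, members that had not passed changed sign under some settings: Psma7 had −0.00043 without control numbers 2 and 3; Psmb5 had −0.21 within numbers 4 and above and −0.082 to 0.20 with 1 library left out; Psmb7 had −0.080 without the pair with little Foxp3, −0.11 within numbers 4 and above and −0.045 to 0.17 with 1 library left out; Psmd11 had −0.094 without control numbers 2 and 3, −0.041 without that pair, −0.15 within numbers 4 and above and −0.029 to 0.081 with 1 library left out. Psma4 had 0.026 in the difference between labeled and post-tamoxifen genotype effects without control numbers 2 and 3, and 0.014 for labeled over post-tamoxifen fl/fl cells within numbers 1 to 3, where Psmc5 had 0.11 in that difference. Psmb1 and Psmb2 lost their calls without the low-Foxp3 pair (adjusted p = 0.086 and 0.0761) and without control numbers 2 and 3 (0.12 and 0.0784), which left 4 and 3 members called. Psmd1 lost its call with the compared groups only (0.0571).

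Counts over all genes moved too. The ranges that follow take in the number subsets but not the leaving out of single libraries. Post-tamoxifen cells of fl/fl over control mice had 147 to 1650 called genes, against 717 in the main fit. Ex-Foxp3 over post-tamoxifen fl/fl cells had 1046 to 2063, against 1507, and the chimera 176 to 396, against 231. Without chimera controls 3 and 4 the chimera had 95. Libraries differed in depth from 781437 to 5709702 counts, and the members with the fewest counts, among them Psmd9 and Psmd10, had wide standard errors.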
